A study of Mus musculus with 13 samples.

Results

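Day 5 short-lived effector (Tsle) cells are CD8+ T cells sorted from mouse spleen 5 days after infection with Listeria monocytogenes expressing ovalbumin, and profiled one cell at a time by quantitative PCR. They were taken as every cell column that the deposited table heads with this population's name, 79 of 1449 cells in all. The cells carried the transgenic OT-1 receptor, which recognises an ovalbumin peptide. They came from C57BL/6J recipients of 5000 OT-1 CD45.1+ cells that were infected with 5000 colony-forming units. The populations set beside them were day 5 memory precursor (Tmp) cells (90 cells), day 7 Tsle cells (89), effector memory (Tem) cells of day 45 (136) and unactivated naive OT-1 cells (149). The infected ones had the same transfer and dose, and neither is given for the naive cells. Shares over all 13 populations also take in unsorted day 5 cells, day 7 Tmp and unsorted day 7 cells and central memory (Tcm) cells of day 45, with the same transfer. First-division cells of day 2 had a transfer of 2000000 cells and day 3 cells one of 20000, both with the same dose, and proximal and distal daughter cells of day 2 have neither number given here. Each population was 1 sample, with the number of mice and the gates for Tsle, Tmp and Tem not given in the sources used here. No test between populations was therefore possible. Differences are described by their size, and the exact (Clopper-Pearson) 95% intervals cover counting error over cells alone.

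In an acute infection, activated CD8+ T cells expand and take on effector functions: they secrete chemokines and cytokines and kill infected cells with granzymes. Most of these effectors die when the pathogen is cleared, and the short-lived ones are known by the receptor KLRG1, low interleukin-7 receptor and the transcription factors T-bet, Zeb2 and Blimp-1. Memory precursors keep the interleukin-7 receptor and TCF-1, the product of Tcf7, which sustains self-renewal.

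A transcript was called detected where its deposited value was above 0. Values are log2 amounts on the scale of PCR cycles, and 1 unit is 1 cycle. The labels name Ct, but the values run the other way, with more template giving a larger number. The table has 95 assay rows for 94 genes, since Il2 was measured by a pair of rows. In the 79 Tsle cells 82.4% of values were 0. A Tsle cell had between 8 and 27 genes detected, with a median of 17, against a median of 16 in day 5 Tmp, 13 in day 7 Tsle, 11 in Tem and 12 in naive cells. No column of the series was identical to another, and the columns carry no cell names.

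The label was set against Klrg1, Zeb2, Ccl5 and Lgals1 as markers of short-lived effector cells. All 4 were found in more Tsle than naive cells, which tells effector from naive cells, while Lgals1 (97.5% in Tsle, 93.3% in Tmp) and Zeb2 (35.4% in Tsle, 15.6% in Tmp) were less than 20 percentage points apart from Tmp cells. The genes of T-bet (Tbx21) and Blimp-1 (Prdm1) were not in this set and did not separate Tsle from Tmp cells by 20 points either. Tbx21 was found in 3.80% of Tsle and 2.22% of Tmp cells, and Prdm1 in 8.86 and 5.56%. Markers of other T cells were rare: Cd4 and Foxp3 were each found in 0 of 79 cells, and Gata3 in 3 cells (3.80%). For a count of 0, the limit given throughout is the share that 3 cells would make, 3.80% of 79 cells. No B cell or myeloid marker of the list was on the array. Ptprc, the gene of the leukocyte antigen CD45, was found in every Tsle cell, and Cd8a, the CD8 alpha chain, in 44 of 79 (55.7%, interval 44.1 to 66.9%). Klrg1 and Il7r may have served as gates, so their shares may follow from the sort.

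Promoters are shown for genes at least 20 points apart between Tsle and naive cells for which the RefSeq tables hold a sequence: Cxcr3 and Klrc1, found in more Tsle cells, and Tcf7, found in none. Cxcr3 and Klrc1 were as common in Tmp cells (51.1 and 24.4%) to within 20 points. Each runs from 250 bases before to 50 after a transcription start of assembly GRCm38.p6, on the minus strand. They lie at chrX:101734098-101734397 (Cxcr3), chr6:129678924-129679223 (Klrc1) and chr11:52282546-52282845 (the first of the 2 listed starts of Tcf7). Capitals mark the E-box CAGGTG, a sequence that Zeb2 binds, on either strand.
Cxcr3: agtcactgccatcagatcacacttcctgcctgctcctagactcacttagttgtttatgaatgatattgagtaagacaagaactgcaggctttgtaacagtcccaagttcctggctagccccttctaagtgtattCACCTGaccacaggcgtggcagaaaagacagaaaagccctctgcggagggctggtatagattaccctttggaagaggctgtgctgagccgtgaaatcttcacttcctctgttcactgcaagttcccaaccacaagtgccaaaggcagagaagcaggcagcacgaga
Klrc1: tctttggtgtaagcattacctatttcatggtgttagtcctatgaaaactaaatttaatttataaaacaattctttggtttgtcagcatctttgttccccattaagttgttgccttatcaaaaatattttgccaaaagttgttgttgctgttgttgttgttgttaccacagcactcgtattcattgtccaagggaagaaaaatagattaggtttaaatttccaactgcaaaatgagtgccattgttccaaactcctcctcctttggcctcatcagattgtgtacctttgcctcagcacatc
Tcf7: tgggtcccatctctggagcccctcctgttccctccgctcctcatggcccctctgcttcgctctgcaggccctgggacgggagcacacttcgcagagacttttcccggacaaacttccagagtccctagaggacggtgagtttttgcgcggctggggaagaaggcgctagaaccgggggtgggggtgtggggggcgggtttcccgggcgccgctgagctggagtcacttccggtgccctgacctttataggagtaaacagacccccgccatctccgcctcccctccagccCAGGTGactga

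On both strands, 3 motifs were searched in these windows and in the other Tcf7 start: CAGGTG, the T-box core GGTGTGA and the TCF/LEF core CTTTGA. The E-box was found 116 bases before the Cxcr3 start and 40 bases into the Tcf7 transcript. It occurs in 20.2% of the 32851 promoters of the table, GGTGTGA in 3.98% and CTTTGA in 16.0%. Neither of the other motifs was in these windows, which says nothing about the factors themselves.

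Nearly every Tsle cell carried Ccl5, the gene of the chemokine RANTES, and Lgals1, the gene of galectin-1, a lectin of activated T cells. Ccl5 was found in 75 of 79 Tsle cells (94.9%, interval 87.5 to 98.6%), against 67 of 90 day 5 Tmp cells, 87 of 89 day 7 Tsle cells, 135 of 136 Tem cells and 2 of 149 naive cells. Lgals1 was found in 77 of 79 Tsle cells (97.5%, 91.2 to 99.7%), against 84 of 90 Tmp, 76 of 89 day 7 Tsle, 72 of 136 Tem and 7 of 149 naive cells. Both transcripts were together in 73 Tsle cells (92.4%, 84.2 to 97.2%), and 0 cells lacked both, so that each of the 6 remaining cells had one of the pair. In naive cells the 2 were together in 0 of 149 (up to 2.01%), and in Tem cells in 72 of 136 (52.9%). They were also together in most cells of the nearer populations. These were 63 of 90 Tmp (70%), 76 of 89 day 7 Tsle (85.4%) and 134 of 154 unsorted day 5 cells (87.0%).

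The amount of Ccl5 did not follow its share of cells. In the Tsle cells that had it, the value ran from 2.98 to 10.86 with a median of 8.45. The median was 12.06 in day 5 Tmp cells, 16.42 in day 7 Tsle cells and 13.44 in Tem cells. Among the 8 populations with Ccl5 in at least 50% of cells, day 5 Tsle had the lowest median. Of the 79 Tsle cells 0 had a Ccl5 value above 12, which allows up to 3.80%, against 35 of 90 Tmp cells, 85 of 89 day 7 Tsle cells, 114 of 136 Tem cells and 1 of 149 naive cells. A comparison at that limit thus turns Ccl5 to lower in Tsle than in Tmp cells by 38.9 percentage points, while detection above 0 gave 20.5 points higher. The earlier and later columns of the Tsle population had Ccl5 medians of 8.62 and 8.29, so the low value is not that of a part of the columns. Cd8a was shifted the other way, with a median of 15.4 in Tsle and 7.8 in Tmp cells that had it, none of the latter above 12. The labels name no array run, so a difference between runs and one between populations cannot be told apart for these amounts.

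The reference transcripts were measured in the same cells. Actb, the gene of cytoplasmic actin, had a median of 22.24 in Tsle cells, the highest of the 13 populations, against 20.64 in Tmp, 20.22 in day 7 Tsle, 17.13 in Tem and 19.31 in naive cells. Its range was 20.10 to 23.72 in Tsle and 12.50 to 20.38 in Tem cells, so the 2 overlapped by a narrow margin. The 18S ribosomal RNA (R18s) had a median of 27.65 in Tsle, 25.74 in Tem and 27.98 in naive cells. Lgals1 had a median of 12.32 in Tsle, 12.42 in Tmp, 16.09 in day 7 Tsle and 12.89 in Tem cells. Across the 77 Tsle cells with Lgals1, its value and that of Actb in the same cell had a Spearman rho of 0.64. For Ccl5 and Actb over 75 cells rho was -0.21, described without a test since these cells are of 1 sample and share their runs.

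**Figure D1:**
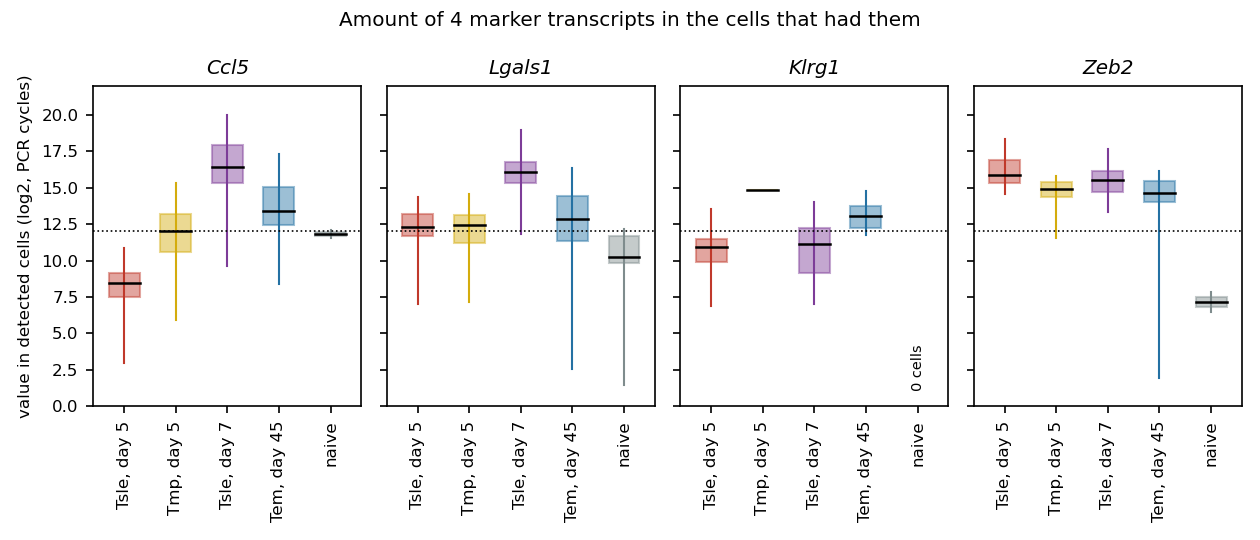
Log2 values on the PCR cycle scale in the cells that had Ccl5, Lgals1, Klrg1 or Zeb2, by population. Boxes span the quartiles, black lines are medians, whiskers reach the lowest and highest cell, and the dotted line is a value of 12. Ccl5 in day 5 Tsle cells lies wholly below that line, with a median of 8.45 against 13.44 in Tem cells.

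Klrg1, an inhibitory receptor of terminally differentiated effectors, was found in 32 of 79 Tsle cells (40.5%, interval 29.6 to 52.1%). It was found in 1 of 90 Tmp, 25 of 89 day 7 Tsle, 6 of 136 Tem and 0 of 149 naive cells (up to 2.01%). The share was the highest of the 13 populations, with day 7 Tsle next at 28.1% (19.1 to 38.6%). These intervals overlap, and Klrg1 may have been a gate, so the order may follow from the sort. Klrg1 values in Tsle cells ran from 6.91 to 13.52 with a median of 10.96, and in 2 cells they lay above 12.

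Zeb2, a zinc finger repressor that drives terminal effector differentiation, was found in 28 of 79 Tsle cells (35.4%, 25 to 47.0%), against 14 of 90 Tmp, 43 of 89 day 7 Tsle, 33 of 136 Tem and 2 of 149 naive cells. Its values in Tsle cells ran from 14.56 to 18.38 with a median of 15.91, all above 12. Klrg1 and Zeb2 shared 13 cells (16.5%, 9.06 to 26.5%), Klrg1 was without Zeb2 in 19, Zeb2 without Klrg1 in 15, and neither was found in 32. All 4 markers were together in 11 of 79 Tsle cells (13.9%, 7.16 to 23.5%), against 1 of 90 Tmp, 8 of 89 day 7 Tsle, 1 of 136 Tem and 0 of 149 naive cells.

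Of the 7 measured cytotoxic and effector genes, 5 were found in at least 10% of Tsle cells: Lgals1, Klrg1, Klrc1, Gzmb and Serpinb9. Over all genes 37 of 94 were. Klrc1, which encodes the NKG2A receptor, was found in 23 of 79 cells (29.1%, 19.4 to 40.4%) with a median value of 13.57. Gzmb, the gene of granzyme B, was found in 15 (19%, 11 to 29.4%) with a median of 15.35. Serpinb9, an inhibitor that protects killer cells from their own granzyme B, was found in 9 (11.4%, 5.34 to 20.5%). All its values there were low, between 1.01 and 4.91, against a median of 10.54 in the Tmp cells that had it. The limit on runs given for Ccl5 holds for these values too. Ifng, the gene of interferon gamma, was found in 3 cells (3.80%, 0.790 to 10.7%) and Serpinb6b in 0.

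Of the 9 measured effector transcription factors, 3 reached 10% of Tsle cells, Zeb2, Eomes and Stat4, a share of the list below that of all genes (37 of 94). Eomes, a T-box factor of effector and memory cells, was found in 27 of 79 (34.2%, 23.9 to 45.7%), and Stat4, which signals from the interleukin-12 receptor, in 17 (21.5%, 13.1 to 32.2%). Prdm1, which encodes Blimp-1, was found in 7 cells (8.86%, 3.64 to 17.4%), against 5 of 90 Tmp, 6 of 89 day 7 Tsle, 3 of 136 Tem and 0 of 149 naive cells. In unsorted day 5 cells its share was 20.8%. Tbx21, which encodes T-bet, was found in 3 Tsle cells (3.80%, 0.790 to 10.7%). Tbx21 was rare in every population: this share was the highest of the 13, with day 7 Tsle next at 3.37%. Irf4, Irf8 and Bhlhe40 were in 1 cell each, and Id2 was in none. At least one of Zeb2, Eomes, Prdm1 and Tbx21 was found in 52 of 79 Tsle cells (65.8%, 54.3 to 76.1%), against 33 of 90 Tmp, 55 of 89 day 7 Tsle, 43 of 136 Tem and 17 of 149 naive cells.

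Of the 5 measured cytokine receptors, 3 were found in at least 10% of Tsle cells, beside 37 of 94 genes in all. Il2rb, the shared beta chain of the interleukin-2 and interleukin-15 receptors, was found in 46 of 79 Tsle cells (58.2%, 46.6 to 69.2%). Ifngr1, an interferon gamma receptor chain, was found in 40 (50.6%, 39.1 to 62.1%), and Il2ra, the high-affinity interleukin-2 receptor chain, in 29 (36.7%, 26.1 to 48.3%). Tnfrsf1b, a receptor of tumour necrosis factor, was found in 7 and Il7r in 1. Il2ra and Il2rb shared 16 Tsle cells, while 13 had Il2ra without Il2rb. Cxcr3, a chemokine receptor that guides effectors to inflamed tissue, was found in 35 (44.3%, 33.1 to 55.9%). Klf2, a factor that supports recirculation through blood and lymph, was found in 63 (79.7%, 69.2 to 88.0%), much as in Tem (74.3%) and naive cells (79.9%).

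Of the 94 genes, 22 were found in 0 of the 79 Tsle cells, 24 in 1 to 3 cells, 26 in 10 to under 50% of cells and 11 in at least 50%. A count of 0 allows a share of up to 3.80%. The absent genes do not all say the same, because 12 of the 22 were found in 14 cells or fewer of the whole series. Among these were Bmp2 and Serpinb6b, found in 0 of 1449 cells, Il2 (14 cells), the inhibitor of DNA binding Id3 (14), Il3 (11), Tcf3 (10), Bag2 (7), Prkcz (2), Psmb1 (1) and Sema7a (1). For these genes the 0 in Tsle cells is not particular to that population. Others differed in how widely they were found. Casp9 was found in 2 populations, Pdcd1 in 3, Lif in 4, Cxcl10 in 6, Atf1 in 8 and Ccr6 in 12, all but day 5 Tsle. Casp9 reached 17.4% and Cxcl10 13.9% of first-division cells, Pdcd1 15.2% of Tcm and Lif 9.64% of proximal cells. Within Tcm cells, Pdcd1 was found in 20 of 69 earlier and 1 of 69 later columns. Ccr6 and Atf1 stayed at or below 5.97% in every population.

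Of the 22 absent genes, 4 reached 20% of cells in another population. Tcf7 was found in 713 cells of the series and in each of the other 12 populations, with shares from 3.37% in day 7 Tsle to 83.1% in proximal daughter cells. Tem cells had it in 65 of 136 cases (47.8%, 39.2 to 56.5%), and 112 of 149 naive cells carried it (75.2%, 67.4 to 81.9%). Ccr7, the receptor that brings T cells into lymph nodes, was found in 247 cells of the series, among them 52 of 149 naive cells (34.9%, 27.3 to 43.1%) and 6 of 136 Tem cells, but also in 0 of 89 day 7 Tsle cells. Xcl1, a chemokine of activated T cells, was found in up to 23.1% of cells (day 3), with 0 of 79 day 5 Tsle, 0 of 90 Tmp, 0 of 89 day 7 Tsle, 0 of 136 Tem and 1 of 149 naive cells. At least one of Tcf7, Lef1, Ccr7 and Il7r was found in 7 of 79 Tsle cells (8.86%, 3.64 to 17.4%), against 51 of 90 Tmp, 11 of 89 day 7 Tsle, 77 of 136 Tem and 139 of 149 naive cells.

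Id2, an inhibitor of E proteins that effector CD8+ T cells are known to need, was the fourth. It was found in 0 of 79 Tsle cells and 53 of 90 Tmp cells (58.9%, 48.0 to 69.2%), while Tem cells had it in 28 of 136 (20.6%, 14.1 to 28.4%), and naive cells in 3 of 149. It was also found in 0 of 154 unsorted day 5 cells, a population that the labels do not separate into Tsle and Tmp. The assay gave a value in 7 of the 13 populations, and in Tmp cells the median was 7.93 with none above 12. At that limit Id2 was in 0 Tsle and 0 Tmp cells. In Tcm cells it was found in 0 of 69 earlier and 35 of 69 later columns. A difference between runs and one between populations cannot be told apart for Id2, the difference of Tsle from Tmp cells included.

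**Figure D2:**
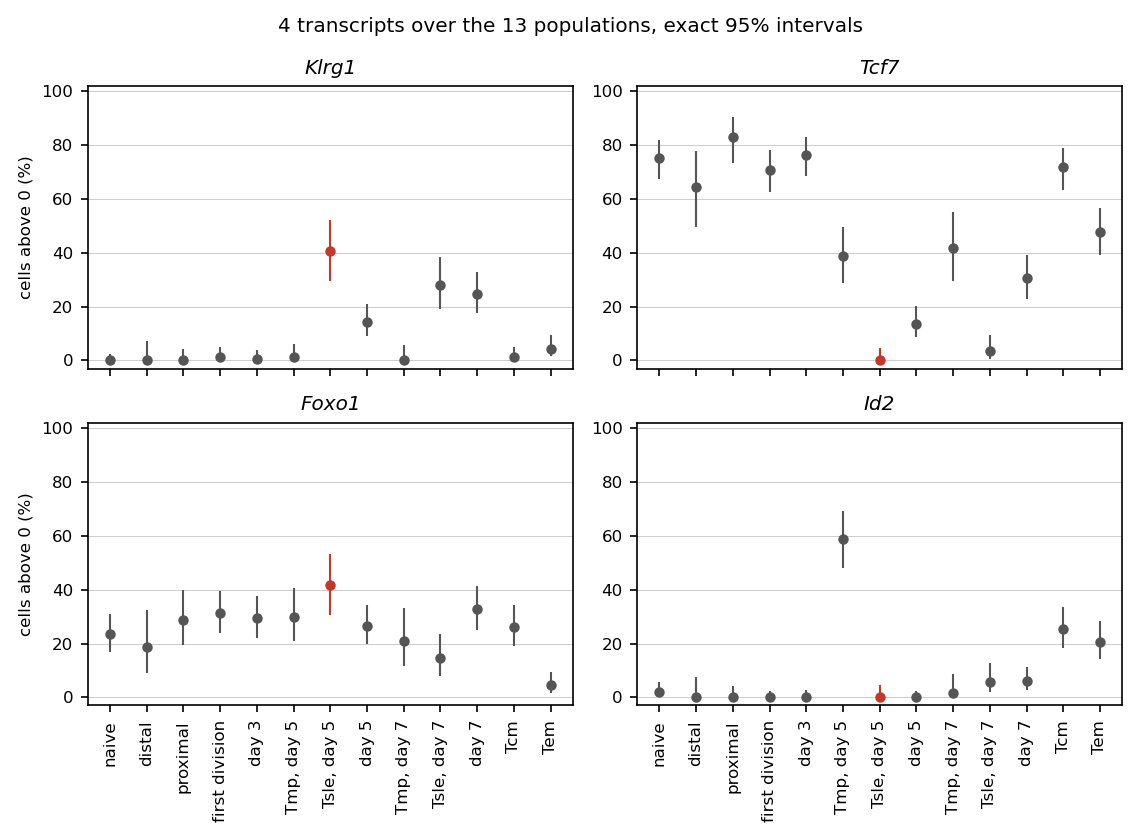
Percent of cells with Klrg1, Tcf7, Foxo1 or Id2 in each of the 13 populations, from naive cells to Tem cells of day 45, with exact 95% intervals and day 5 Tsle in red. Klrg1 and Foxo1 are highest in day 5 Tsle, Tcf7 is at 0 there, and Id2 is at 0 in day 5 Tsle as in unsorted day 5 cells but at 58.9% in day 5 Tmp.

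Against naive cells, Tsle cells had many effector genes and receptors in more cells and the naive markers Tcf7, Ccr7 and Il7r in fewer. Of the 94 genes, 12 were found in a share of cells at least 20 percentage points higher in Tsle (12.8% of genes) and 4 in a share at least 20 points lower (4.26%). Ccl5 (93.6 points) and Lgals1 (92.8) led, and others were Klrg1 (40.5), Cxcr3 (38.9), Il2rb (38.8), Zeb2 (34.1), Il2ra (32), Thy1 (29.9), Klrc1 (29.1), Ifngr1 (26.5) and Eomes (23.4). Thy1, a surface protein of T cells, was found in 39 of 79 Tsle cells (49.4%) against 29 of 149 naive cells (19.5%). Among the lower were Tcf7 (-75.2 points), Ccr7 (-34.9) and Il7r (-31.6), the last of which was found in 1 of 79 Tsle cells and 49 of 149 naive cells.

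By list, 3 of 7 cytotoxic and effector genes and 2 of 9 effector transcription factors were at least 20 points higher than in naive cells. So were 1 of 5 chemokines and 3 of 5 cytokine receptors, beside 12 of 94 genes in all (12.8%). Il7r, also a cytokine receptor, was lower. Of 6 genes of costimulation and inhibition, 4 of signalling, 3 of growth and 3 of apoptosis, 0 were apart either way. Of the 10 naive and memory factors 0 were higher and 1, Tcf7, was lower. The median difference was 11.6 points for the cytotoxic and effector genes and 26.5 for the cytokine receptors, beside 1.27 over all genes. Because Tsle cells also had more genes detected per cell (17 against 12), the comparison was repeated in cells with 12 to 22 detected genes, 68 Tsle and 88 naive. There 7 genes in place of 4 were at least 20 points lower. By mean level, the value minus 12 with 0 at or below 12, 6 genes were at least 1 cycle higher, and with each cell centred on its Actb and Gapdh values 4 were higher and 8 lower.

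Against Tem cells, Tsle cells had receptors, Lgals1 and Foxo1 more often, while Tcf7 and Id2 were less often found. Of the 94 genes, 11 were found in a share at least 20 points higher in Tsle (11.7%) and 2 lower (2.13%). Among the higher were Lgals1 (44.5 points), Il2rb (37.6), Foxo1 (37.4), Klrg1 (36.1), Ifngr1 (31.5), Thy1 (28.8), Eomes (28.3), the proteasome subunit Psmb7 (23.2), Il2ra (22) and Cxcr3 (20.8). Above 12, Klrg1 was in 2 of 79 Tsle and 5 of 136 Tem cells, so its difference depends on the limit. Tcf7 (-47.8 points) and Id2 (-20.6) were lower. Of the 5 cytokine receptors 3 were higher, of the 7 cytotoxic and effector genes 2, of the 9 effector factors 1 (Eomes), and of the 5 chemokines 0.

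Foxo1, a forkhead factor that promotes Il7r and Klf2, was found in 33 of 79 Tsle cells (41.8%, 30.8 to 53.4%), the highest share of the 13 populations. It was found in 27 of 90 Tmp, 13 of 89 day 7 Tsle, 6 of 136 Tem and 35 of 149 naive cells. Its median value in Tsle cells with the transcript was 15.71, against 13.47 in Tem and 13.78 in naive cells. Unsorted day 7 cells came next in share at 32.8% (25 to 41.5%), and their interval overlaps that of day 5 Tsle. Tem cells had fewer genes detected (a median of 11 against 17) and less Actb, and the part of these in the differences was not tested. With each cell centred on its Actb and Gapdh values, 3 genes were at least 1 cycle higher in Tsle and 5 lower. Lgals1 then turned to lower in Tsle (-0.80 cycles).

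**Figure D3:**
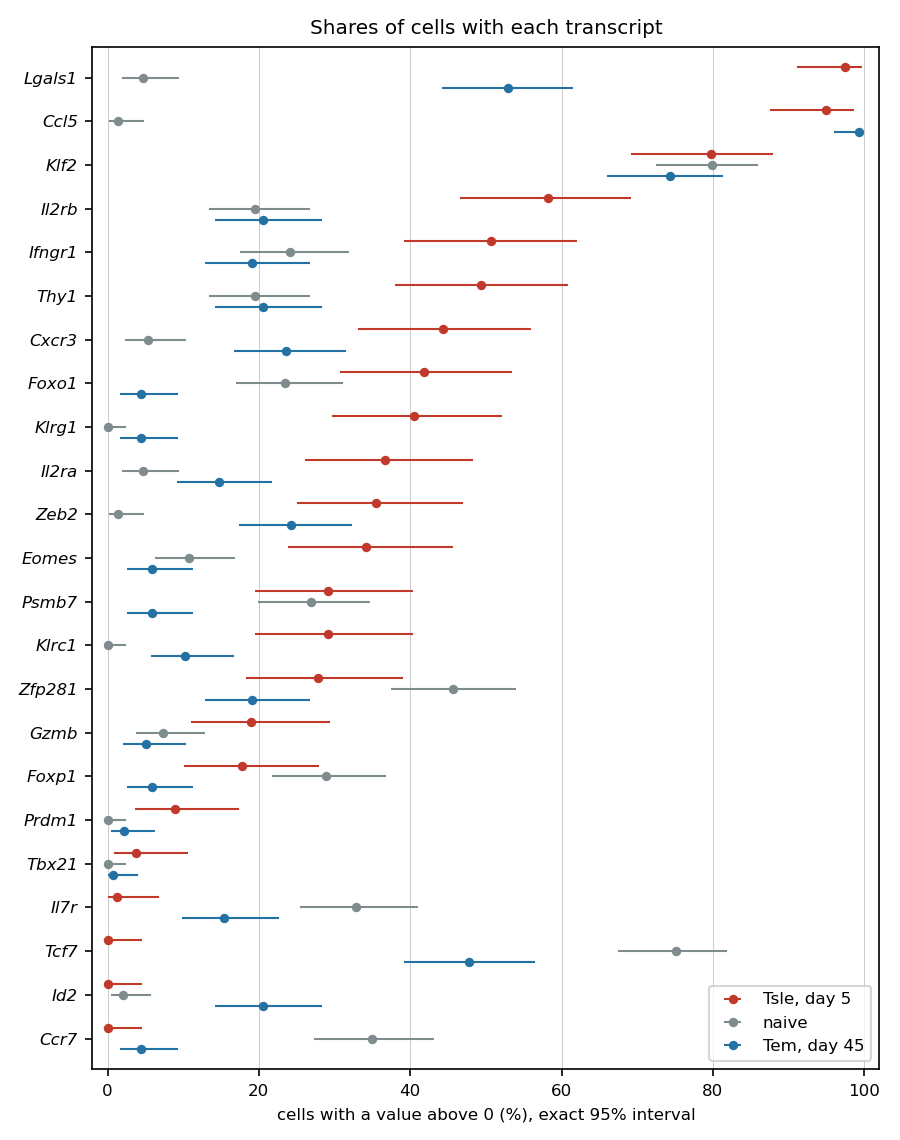
Percent of cells with a value above 0, with exact 95% intervals, for genes named in the text, in day 5 Tsle (red), naive (grey) and Tem cells (blue). Lgals1, Ccl5, Klrg1 and Zeb2 separate Tsle from naive cells, Klf2 is close in all 3, and Tcf7 falls at 0 in Tsle, against 47.8% in Tem and 75.2% in naive cells.

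Naive and Tem cells themselves were at least 20 points apart in 10 genes, chosen without the Tsle cells. Tsle cells lay between the 2 in 5 of them and outside in the other 5. For 4 of the 10 genes, Tsle cells lay past Tem cells as seen from naive cells: Lgals1, Zeb2, Tcf7 and Ccr7. For 3 they lay between the 2 and nearer to Tem, among them Ccl5 and the zinc finger gene Zfp281 (27.8% in Tsle, 19.1% in Tem, 45.6% in naive). Rela, a subunit of NF-kappaB (26.6% in Tsle, 6.62% in Tem, 28.2% in naive), and the forkhead gene Foxp1 (17.7, 5.88 and 28.9%) lay nearer to naive. Psmb7 was found in 29.1% of Tsle, 5.88% of Tem and 26.8% of naive cells, past the naive share.

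Cell by cell, 4 of these 10 genes had a different commoner state (present or absent) in Tem and naive cells. On them, 79 of 79 Tsle cells matched Tem cells in more genes than naive cells (100%, 95.4 to 100%). Ccl5, Lgals1 and Tcf7 were among the 4, so this largely repeats their counts given above. In Tem cells the commoner state was near even for Lgals1 (present in 52.9%) and Tcf7 (present in 47.8%). A Euclidean distance to the mean levels over all genes, where a level is the value minus 12 and is 0 at or below 12, had 36.7% of Tsle cells nearer to Tem. At that limit Ccl5 is at 0 in every Tsle cell. Gene set, measure and limit all differ between the 100% and the 36.7%, so the change was not traced to one of them.

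Tsle cells carried 2 to 10 of the 23 measured effector genes, that is the chemokines, cytotoxic and effector molecules, effector factors, Cxcr3 and Il2rb. Their median was 5, against 5 in Tmp, 4 in day 7 Tsle, 3 in Tem and 1 in naive cells. As a share of the genes detected in the cell, the median was 30.8% in Tsle, 27.3% in Tmp, 30.8% in day 7 Tsle, 27.0% in Tem and 5.88% in naive cells. On this share Tsle and Tem cells were closer than on the count. Of the 10 naive and memory factors, Tsle cells had a median of 2, against 1 in Tem and 2 in naive cells. As a share of the genes detected in the cell, the order differed. The median for these factors was 10.5% in Tsle, 12.5% in Tem and 20% in naive cells.

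**Figure D4:**
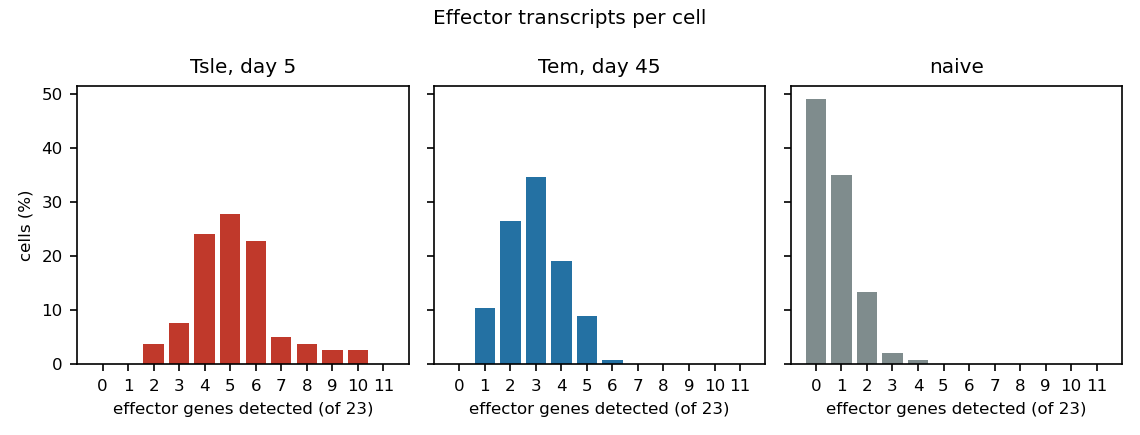
Percent of cells by the number of effector genes detected, out of 23, in day 5 Tsle (left), Tem (middle) and naive cells (right). Tsle cells run from 2 to 10 with a median of 5, Tem cells from 1 to 6 with a median of 3, and naive cells from 0 to 4 with a median of 1.

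Beyond Ccl5 and Lgals1, the effector genes were found in varied combinations. For Klrg1, Zeb2, Eomes, Klrc1 and Gzmb together, 14 of 79 cells had none of the 5, 23 had 1, 28 had 2, 10 had 3, 4 had 4 and 0 had all. These 5 genes gave 23 of the 32 possible combinations. Over the 9 effector genes found in 10 to 90% of Tsle cells, 63 combinations were seen, and the most common was shared by 3 cells.

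These 9 genes gave 36 pairs, and for each the share of cells with the rarer gene was compared between cells with and without the commoner one. In 20 pairs the rarer gene was more common beside its partner, in 16 less, and the median difference was 1.02 points. The pair of Klrg1 and Klrc1, both inhibitory lectin-like receptors of killer cells, reached 20 points. Klrc1 was found in 14 of 32 cells with Klrg1 (43.8%, 26.4 to 62.3%) and 9 of 47 without (19.1%, 9.15 to 33.3%). The intervals overlap. In the earlier columns Klrc1 was in 8 of 14 cells with and 3 of 25 without Klrg1, and in the later columns in 6 of 18 with and 6 of 22 without, so the difference lay mostly in the earlier columns. Among cells with 12 to 22 detected genes the shares were 42.3 and 16.7%.

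The pairs next in size were Gzmb beside Il2rb (12 of 46 cells with it and 3 of 33 without), Gzmb beside Klrc1 (7 of 23 and 8 of 56), Serpinb9 beside Zeb2 (6 of 28 and 3 of 51), Klrg1 beside Cxcr3 (17 of 35 and 15 of 44) and Zeb2 beside Il2rb (19 of 46 and 9 of 33). Of these, Klrg1 beside Cxcr3 turned its sign between earlier (32.6 points) and later columns (-2.08). The rest kept their sign but changed in size from earlier to later columns. Gzmb beside Il2rb went from 24.5 to 12.1 points and Gzmb beside Klrc1 from 5.84 to 26.2. Serpinb9 beside Zeb2 went from 33.1 to 6.57 and Zeb2 beside Il2rb from 19.2 to 3.30. At the other end, Eomes was found in 7 of 28 cells with Zeb2 (25%, 10.7 to 44.9%) and 20 of 51 without (39.2%, 25.8 to 53.9%), and these intervals overlap. The difference of -14.2 points was -11.4 in the earlier and -14.1 in the later columns. Among cells with 12 to 22 detected genes it was -9.47 points. Klrg1 was found in 16 of 46 cells with Il2rb and 16 of 33 without (-13.7 points), but this was -32.6 points in the earlier and 3.30 in the later columns. Klrc1 beside Eomes (6 of 27 and 17 of 52) and Gzmb beside Stat4 (2 of 17 and 13 of 62) also turned sign between the columns, as did Cxcr3 beside Il2rb (19 of 46 and 16 of 33). Stat4 was found in 8 of 46 cells with and 9 of 33 without Il2rb. Cells with each of the 9 genes had medians of 16 to 19 other genes detected, and cells without it 15.5 to 16.5. The median was higher in cells with the gene for all but Il2rb, where both were 16. The part of this in the pairs was not tested.

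**Figure D5:**
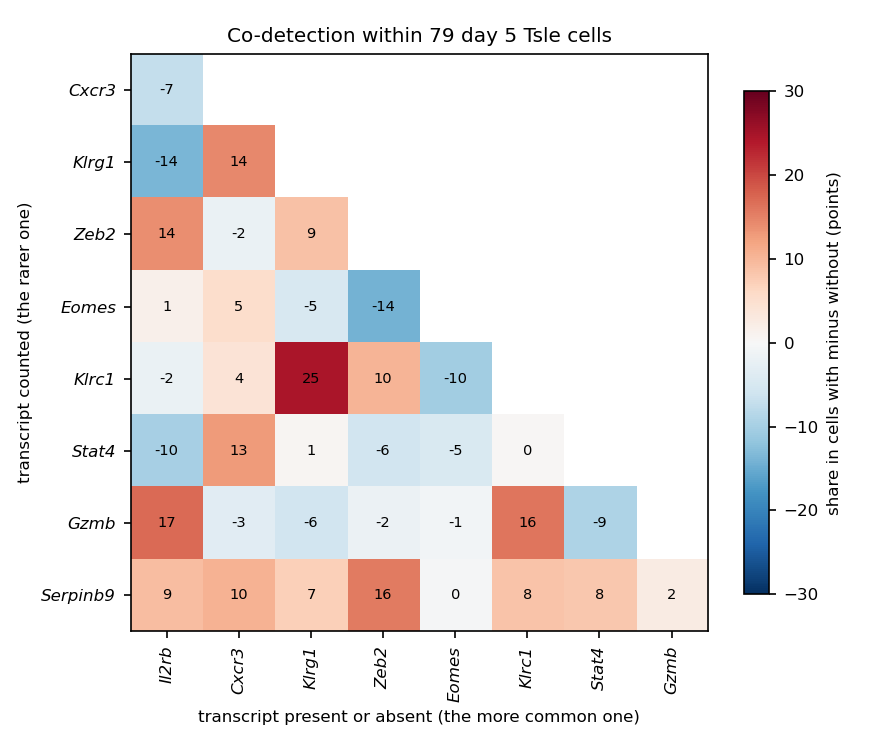
Difference, in percentage points, in the share of the 79 day 5 Tsle cells with the rarer gene (rows) between cells with and without the commoner gene (columns). Klrc1 with Klrg1 is the pair past 20 points (24.6), and Eomes with Zeb2 is at the other end (-14.2).

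Day 5 Tsle cells differed from the neighbouring populations in fewer genes. Against day 5 Tmp, 2 of 94 genes were at least 20 points higher (2.13%), Klrg1 (39.4 points, a possible gate) and Ccl5 (20.5, but lower above 12). The 3 lower genes (3.19%) were Id2 (-58.9, with the limit given above), Tcf7 (-38.9) and the costimulatory receptor Cd28 (-31.5). Against day 7 Tsle, 3 genes were higher (3.19%), Il2rb (31.3 points), Il2ra (28.8) and Foxo1 (27.2), and 0 lower (0%). The earlier and later Tsle columns of day 5 differed by 20 points in 0 genes, the largest difference being that of Zeb2 (-19.4 points). In naive cells 5 genes did, and in Tem, day 5 Tmp and day 7 Tsle cells 1 gene each. Counts of this size thus also arose within 1 population, the naive cells.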

How the data were processed

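Per the labels' protocols, single cells were sorted into a reverse transcription and preamplification mix with pooled TaqMan assays, taken through 18 cycles of amplification and, after 5-fold dilution, run on BioMark dynamic arrays (Fluidigm). The deposited log2 values, on the PCR cycle scale, are not normalized per the labels. How Ct became these values is not given in the sources used here. They were read as 40 minus Ct, an offset taken from the values, so that the limit of 12 is a Ct of 28. Of the Tsle values above 0, 14.8% lay at or below it.

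Of the 95 rows, 93 matched RefSeq (GRCm38.p6) by accession, and 3 symbols were updated. Shares have exact binomial intervals from scipy 1.17.1, with numpy 2.4.6, Python 3.11.15 and matplotlib 3.10.9. The cell number of each population limits the precision. Naming followed a rule: genes absent from Tsle cells or in at least 50% of them, the 12 largest differences each way against naive and Tem and the 8 largest against Tmp and day 7 Tsle, list members, and the 6 highest and 6 lowest pairs. The Tsle population and the gene lists were chosen with earlier results of these data known. Part of the genes behind the totals is not reported here. Each population's columns were also split in file order into an earlier and a later part. Counting was tested on simulated data.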

Additional observations from a re-analysis of the deposited data

How the results depend on the processing

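Precision is limited by 79 cells and 1 sample per population. No paired analysis was possible because each population is 1 sample and no test was run. Counts of genes at least 20 points apart moved by more than 1.5 times as follows, and the cause was not tested. Against naive cells, 12 higher became 6 by mean level and 4 after centring on Actb and Gapdh, and 4 lower became 7 in cells with 12 to 22 detected genes and 8 after centring. Against Tem, 11 higher became 6 at 30 points and 3 after centring, and 2 lower became 1 in later columns, 1 at 30 points, 5 after centring and 1 when all 4 pairings of earlier and later columns were required, an alternative chosen after seeing the data. Against Tmp, 2 higher became 4 in earlier columns, 5 by mean level, and 1 with 12 to 22 genes, at 30 points, after centring or in all 4 pairings, and 3 lower became 1 by mean level. Against day 7 Tsle, 3 higher became 5 above 12, 6 in earlier and 8 in later columns, 1 at 30 points and 8 by mean level. The 0 lower became 2 above 12, 1 above 8, 1 with 12 to 22 genes, 2 in earlier columns, 2 by mean level and 3 after centring. The 1 pair past 20 points became 0 above 12, 3 with 12 to 22 genes and 11 in earlier columns. Above 12, Klrg1 was left in 2 Tsle cells and Klrc1 in 21, so Klrg1 was the rarer gene counted. Its share in cells with minus without Klrc1 was -3.45 points, a different measure from that of Klrc1 beside Klrg1. Cells nearer Tem fell to 95% in later columns and 36.7% by Euclidean distance. Single genes that reversed were Ccl5 against naive (-0.671 points above 12, -0.00066 cycles by level) and against Tmp (-38.9 points above 12, -12.6 above 8, -0.49 cycles by level, -1.27 centred), Klrg1 against Tem (-1.14 points above 12, -0.021 cycles by level, -0.19 centred) and against Tmp (-0.0021 cycles by level, -0.039 centred), Lgals1 against Tem (-0.11 cycles by level, -0.80 centred), and, centred against Tem, Cxcr3 (-0.051 cycles) and Ifngr1 (-0.0075). The numbers of genes in 0 cells, in at least 50% and in every cell stayed within 1.5 times under the limits, assay minimums and column splits tried.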

Other observations

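Values of 3 further genes, each less than 20 points apart from naive and Tem cells, are given without a common theme. Mapk8, which encodes the kinase JNK1, was found in 13 of 79 day 5 Tsle cells (16.5%, interval 9.06 to 26.5%), against 4 of 90 day 5 Tmp, 5 of 89 day 7 Tsle, 1 of 136 Tem and 3 of 149 naive cells. That share was the highest of the 13 populations, and its interval overlaps that of the next. Runx2, a Runt family factor, was found in 12 of 79 day 5 Tsle, 12 of 90 Tmp, 3 of 89 day 7 Tsle, 2 of 136 Tem and 0 of 149 naive cells. Bnip3l, a mitochondrial gene of cell death and mitophagy, was found in 13 of 79 day 5 Tsle, 8 of 90 Tmp, 13 of 89 day 7 Tsle, 2 of 136 Tem and 17 of 149 naive cells. Day 5 Tsle cells had more genes detected (a median of 17, against 11 in Tem and 12 in naive cells), and the part of this in these shares was not tested. Mapk8 and Runx2 were chosen after their values were seen.

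Transcripts of growth were rare. Myc was found in 2 of 79 Tsle cells (2.53%, 0.308 to 8.85%), 4 of 136 Tem and 16 of 149 naive cells, and Mtor and Hk2 in 1 Tsle cell each.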
